A study of Mus musculus with 12 samples.

Results

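Cd9, Cd81, Folr4, Astl and Oosp1, a set of 5 egg genes, were followed through oocyte growth and meiotic maturation. They were taken by name as genes of the egg surface, the cortical granules and the oocyte's secreted proteins, and Folr4 is the older symbol of Izumo1r, also called Juno. All 5 were among the 23230 genes of the deposited table, and all 5 were among the 11502 kept genes, those with at least 1 FPKM in at least 1 of the 12 libraries. FPKM counts fragments relative to transcript length and library depth, so levels of different genes can be set side by side.

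WT mice and mice with both Zar1 and Zar2 knocked out (Zar1/2-null), all on a C57BL6/ICR hybrid background, gave oocytes at 3 stages, and each of the 6 groups had 2 libraries made from 10 oocytes. Growing oocytes came from females 13.5 days old by the labels and 12 days old by the methods. Fully grown oocytes with an intact germinal vesicle (GV) came from females 21 days old by the labels, 44 h after PMSG. MII oocytes were taken 16 h after hCG, with no age in the labels. The methods give 21 to 23 days for females injected for either stage. Both older stages had thus been hormone-stimulated in both genotypes while growing oocytes had not. MII is the stage given in the labels for both genotypes. The study describes ovulated null oocytes as arrested at metaphase or telophase of the first division, so genotype and meiotic stage reached cannot be told apart in that comparison. The study also held maturing WT oocytes in the first division with nocodazole, and the decay of selected mRNAs was unaffected. It proposes from this that the delayed decay came from the missing ZAR proteins and not from the arrest. No library here comes from that experiment. The null alleles are small CRISPR/Cas9 deletions carried by every cell of the animal, and transcripts of the targeted loci can still be made. The libraries were made with Smart-seq2, which primes on poly(A) with oligo-dT, so a shorter tail and a lost transcript cannot be told apart in these values. Each library pools the RNA of its oocytes, so fewer intact cells and less RNA per cell cannot be told apart either.

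Fertilization needs both a receptive egg membrane and a later block to further sperm. CD9 and CD81 are tetraspanins of the egg plasma membrane, and CD9 on the egg is required for fusion with sperm. Folr4 encodes JUNO, a GPI-anchored protein that binds IZUMO1 on sperm and is shed once fusion has taken place. Astl encodes ovastacin, a metalloprotease stored in cortical granules, which are vesicles under the egg membrane, and its release cuts ZP2 and closes the zona pellucida to further sperm. Oosp1 encodes a small secreted oocyte protein of less settled function and is neither a fusion receptor nor a known granule protease.

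The 3′ ends of the 5 transcripts are shown first, because the libraries were primed there and because tail length at this end governs the storage and decay of many maternal mRNAs. Each sequence is 30 bases of the 3′-UTR, 5′ to 3′ on the transcript strand, from an annotation of the mm9 build (GENCODE). In the first 4 the 30 bases end with the polyadenylation signal AATAAA, given in capitals. In Oosp1 they are the last 30 of the transcript, since neither AATAAA nor ATTAAA was found in its last 40 bases. Other forms of the signal were not searched.
Cd9: tatattgaagacaatttgatacatAATAAA
Cd81: aattaaatcttgaaacagtcatttAATAAA
Folr4: gacatgtcctatcatggtaccttcAATAAA
Astl: gcacttcatgtgggaaaaggtagaAATAAA
Oosp1: ctaatgatcataaatagttattttttcttg

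The signal began 20 bases from the annotated end in Cd9, 35 in Cd81, 22 in Folr4 and 23 in Astl. AATAAA or ATTAAA lay in the last 40 bases of 76.0% of 9954 kept genes with a 3′-UTR of at least 100 bases, so 4 of 5 is close to that share. The cytoplasmic polyadenylation element, searched as TTTTAT or TTTTAAT on the transcript strand (its end can overlap the signal), was found in the last 100 bases of 0 of the 5 and of 20.1% of the 9954. The 3′-UTRs were 395 bases long in Cd9, 560 in Cd81, 333 in Folr4, 876 in Astl and 230 in Oosp1, all shorter than the median of 906. These are matches of letters in one annotated transcript per gene and were compared with no reading of binding.

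The libraries were checked against cell type markers. Summed over 10 oocyte markers (Gdf9, Bmp15, Dppa3, Mos, Ooep, Nlrp5, Figla, Nobox, Kit and Npm2) the level was 2707 FPKM or more in every library, with a highest sum of 14796 FPKM. Summed over 16 granulosa and cumulus markers it was 5.14 to 33.5 FPKM, and only 5 of the 16 were kept, while 8 immune and blood markers summed to 3.25 to 12.2 FPKM. In growing oocytes the granulosa sum was 29.7 to 33.5 FPKM for WT against 14.7 to 22.9 FPKM for Zar1/2-null libraries, at GV 17.6 to 19.8 against 14.3 to 16.3 FPKM, and at MII 5.14 to 5.53 against 7.26 to 8.49 FPKM. Of the 5 kept granulosa markers, 1 was called higher and 3 lower in null growing oocytes, 1 higher and 2 lower in null GV oocytes, and 0 at MII by limma. Among all kept genes 10.6% were called higher and 24.4% lower in growing oocytes. The shares were 2.83% and 40.6% in GV and 21.5% and 10.3% in MII oocytes. The part of these differences in the results was not tested. Of the targeted genes, Zar1l, the listed symbol of Zar2, went from 642 ± 3.21 FPKM in growing WT oocytes to 15.3 ± 3.04 FPKM in the null ones (SD over 2 libraries), and Zar1 went from 664 ± 86.2 FPKM in growing WT oocytes to 433 ± 37.3 FPKM in the null ones. At MII the Zar1 transcript was higher in null oocytes, with 192 ± 2.80 FPKM against 78.0 ± 7.97 FPKM (log2 fold change 1.29, limma, Benjamini-Hochberg adjusted p = 0.000381), so its level does not mark the null genotype there.

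The authors multiplied each library by a factor taken from the ERCC spike-in, artificial RNAs put into every lysis mix at the same dose. The factors, recovered from the table, were 1 in both WT growing libraries, 0.697 to 0.836 in WT GV, 0.533 to 0.583 in Zar1/2-null GV, 0.225 to 0.228 in WT MII and 0.252 to 0.283 in Zar1/2-null MII libraries. Both WT growing libraries have a factor of 1 although the paper lists unlike ERCC percentages for them. The reference thus differed by replicate number, and the replicates of a group do not share one spike-in scale. A comparison of GV with MII moves far more with these factors than a comparison of genotypes at one stage, and values before scaling (the factor divided out) are given beside it. Relative depth was recovered from the steps between low values and ran from 0.914 to 1.24 of the first WT growing library. Whole fragment counts came back within 0.05 of a whole number for Cd9, Cd81 and Astl but not for Folr4 and Oosp1, whose depth is therefore not known. Intervals from these counts cover counting error only, since PCR copies were not collapsed. The labels do not say whether the 2 libraries of a group came from separate animals, so p-values measure only the spread between these libraries. With 2 libraries against 2, an exact permutation test cannot go below p = 0.333, and limma was therefore fitted to log2(FPKM + 1) over all 12 libraries and all kept genes. Log2 values below are on that scale, which makes the change of a low gene smaller, and a gene was called at a Benjamini-Hochberg adjusted p under 0.05.

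**Figure D1:**
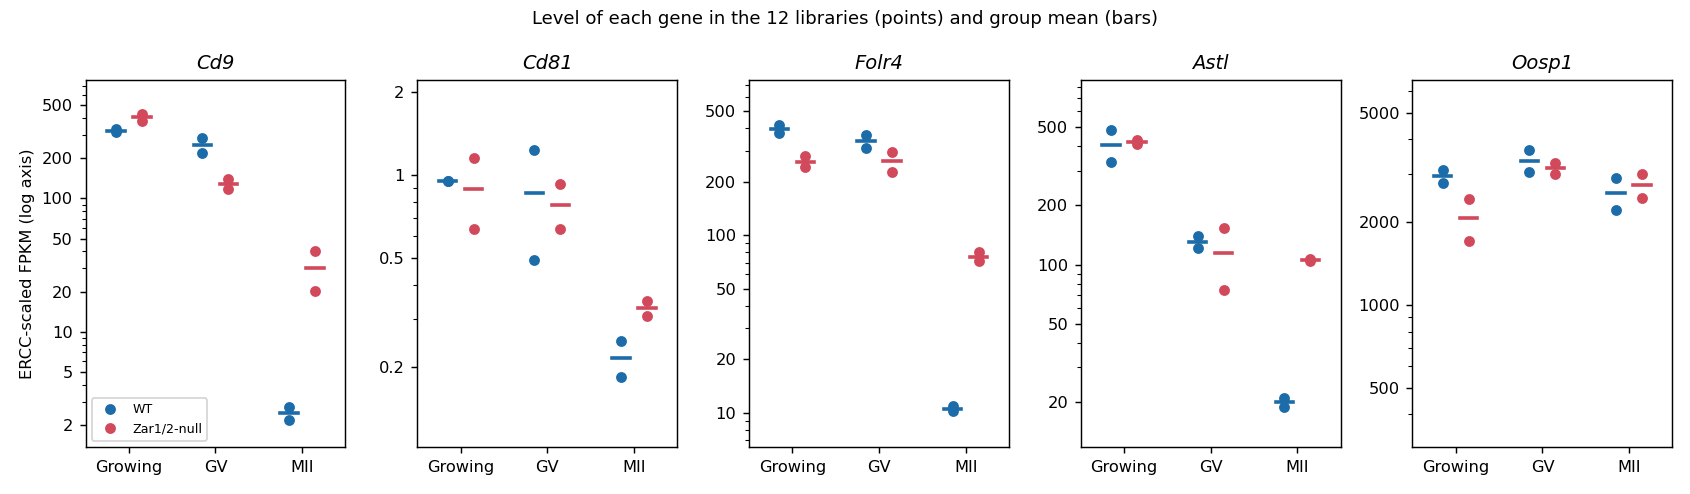
Each panel shows 1 gene, with stage on the horizontal axis and ERCC-scaled FPKM on a logarithmic vertical axis whose range differs between panels. Points are the 2 libraries of each group (WT blue, Zar1/2-null red) and bars are group means. Cd9, Folr4 and Astl dropped at MII in WT oocytes, to means of 2.47, 10.5 and 20.0 FPKM, and lay higher in Zar1/2-null oocytes, while Oosp1 stayed at 1711 FPKM or more in every library.

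In WT GV oocytes Oosp1 was the most abundant of the 5 at 3346 ± 439 FPKM, followed by Folr4 at 339 ± 41.4, Cd9 at 249.6 ± 45.8, Astl at 130.4 ± 12.99 and Cd81 at 0.862 ± 0.526 FPKM (SD, n = 2 each). The libraries of neighbours in that order did not overlap. In WT growing oocytes Astl, Folr4 and Cd9 stood closer together: Folr4 lay within the range of Astl, and the lower Astl library was level with the higher Cd9 library at 332 FPKM. In WT MII oocytes the order became Oosp1, Astl, Folr4, Cd9 and Cd81, again with no overlap between neighbours, so Astl had moved from below Folr4 and Cd9 to above both. In Zar1/2-null GV oocytes the Cd9 libraries lay inside the range of the Astl libraries. The order of genes within a group was not tested.

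Cd9 lies on chromosome 6 of mm9, 125410284 to 125444809, minus strand, in 8 exons. Its level was 332 and 315 FPKM in the WT growing libraries and 431 and 382 FPKM in the Zar1/2-null ones. Both null libraries lay above both WT libraries, but the log2 fold change of 0.33 (standard error 0.27) was not called (limma, Benjamini-Hochberg adjusted p = 0.364).

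WT GV libraries had 282 and 217 FPKM of Cd9 and Zar1/2-null GV libraries 118 and 140.2 FPKM, with both null libraries below both WT libraries. The log2 fold change was -0.94 (standard error 0.27, limma, Benjamini-Hochberg adjusted p = 0.0151), a mean 1.94-fold lower. Before scaling the mean was 1.41-fold lower and the call was lost (limma, Benjamini-Hochberg adjusted p = 0.138). It was also lost without the first WT GV library, at a log2 fold change of -0.75 (limma, Benjamini-Hochberg adjusted p = 0.130), and without the first Zar1/2-null GV library, at -0.82 (limma, Benjamini-Hochberg adjusted p = 0.0900).

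At MII, the Cd9 level was much lower in WT than in null oocytes. In the WT MII libraries it still ranked 3733 and 4388 of the 11502 kept genes, at 12.2 and 9.62 FPKM before scaling. The WT MII libraries had 2.75 and 2.19 FPKM, from 124 and 125 fragments, and the Zar1/2-null MII libraries 40.3 and 20.3 FPKM, from 1567 and 1088 fragments. The exact 95% Poisson interval of the first WT library ran from 2.29 to 3.28 FPKM and that of the lower null library from 19.1 to 21.5 FPKM. The null libraries differed from each other by far more than their counting error of 2.53% and 3.03%, yet both lay well above both WT libraries. The mean was 12.3-fold higher in null oocytes, with a log2 fold change of 3.10 (standard error 0.27, limma, Benjamini-Hochberg adjusted p = 3.81e-06), and 10.2-fold higher before scaling.

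The Cd9 level fell 101-fold from GV to MII in WT oocytes (log2 fold change -6.17, limma, Benjamini-Hochberg adjusted p = 1.95e-09) and 4.25-fold in Zar1/2-null oocytes (log2 fold change -2.13, limma, Benjamini-Hochberg adjusted p = 2.42e-05). Before scaling the folds were 29.7 and 2.07. From growing to GV it did not pass the test in WT oocytes (-0.38, limma, Benjamini-Hochberg adjusted p = 0.287) and fell in null oocytes (-1.65, limma, Benjamini-Hochberg adjusted p = 0.000382). Of the 5 genes Cd9 kept the smallest share of its GV level in WT MII oocytes, 0.989% ± 0.240 (SD propagated from n = 2 libraries a stage). In null oocytes its share was 23.5% ± 11.4, within the error of that of Folr4.

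Cd81, the second tetraspanin of the egg membrane, was read from very few fragments. It lies on chromosome 7 of mm9, 150238644 to 150253839, plus strand, in 8 exons. Its level was 0.948 and 0.953 FPKM in WT growing, 0.634 and 1.15 FPKM in null growing, 1.23 and 0.490 FPKM in WT GV, 0.635 and 0.927 FPKM in null GV, 0.250 and 0.185 FPKM in WT MII and 0.348 and 0.308 FPKM in null MII libraries. These values rest on 11 to 27 fragments a library.

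**Figure D2:**
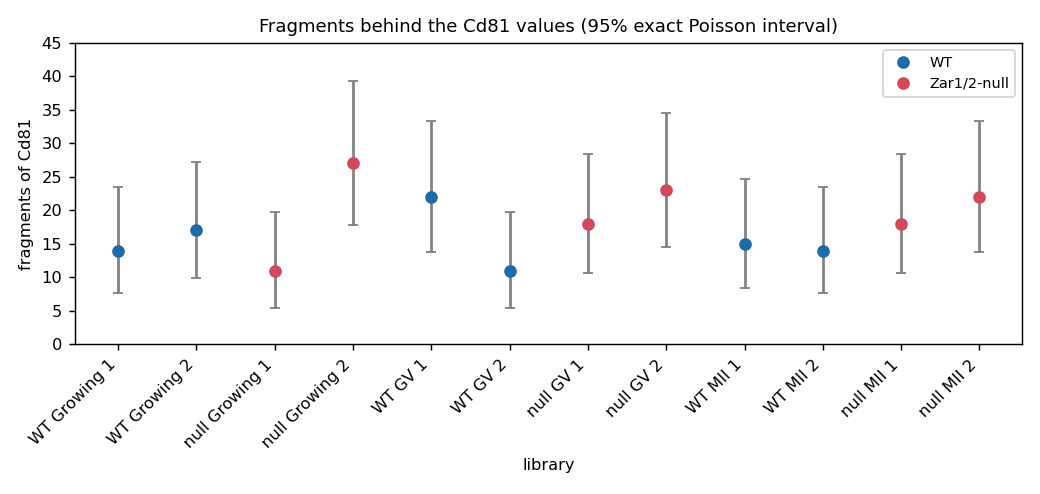
The horizontal axis gives the 12 libraries and the vertical axis the whole fragments of Cd81 recovered for each (WT blue, Zar1/2-null red), with exact 95% Poisson intervals as bars, before any scaling for depth or ERCC. Counts run from 11 to 27 and most intervals overlap across genotypes and stages.

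The WT GV libraries, with 22 and 11 fragments, had the widest spread of any group in FPKM (a coefficient of variation of 61.0%), and their exact 95% Poisson intervals of 13.8 to 33.3 and 5.49 to 19.7 fragments overlapped. No effect of the knockout on Cd81 was called: the log2 fold changes were -0.06 in growing (standard error 0.19, limma, Benjamini-Hochberg adjusted p = 0.841), -0.04 in GV (0.19, adjusted p = 0.877) and 0.13 in MII oocytes (0.19, adjusted p = 0.707). At MII both null libraries lay above both WT libraries, at levels where the intervals overlapped. The null mean at MII was 1.51-fold that of WT (1.28-fold before scaling), and the added 1 FPKM makes the log2 change of such low values smaller. The absence of a call at this depth does not show that the Cd81 levels were alike. The fall from GV to MII in WT oocytes (-0.58, limma, Benjamini-Hochberg adjusted p = 0.0120) followed the scaling: before it the log2 fold change was -0.070 (limma, Benjamini-Hochberg adjusted p = 0.794), with 88.2% of the GV level found at MII. It was also lost without the first WT GV library (limma, Benjamini-Hochberg adjusted p = 0.136) and without the second WT MII library (limma, Benjamini-Hochberg adjusted p = 0.0606).

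Folr4, which encodes the sperm receptor JUNO, lies on chromosome 9 of mm9, 14690258 to 14708395, minus strand, in 5 exons. The WT growing libraries had 375 and 418 FPKM and the Zar1/2-null growing libraries 278 and 242 FPKM, with both null libraries below. The log2 fold change was -0.61 (standard error 0.17, limma, Benjamini-Hochberg adjusted p = 0.0191), a mean 1.52-fold lower. Before scaling the difference was 1.25-fold and was not called (limma, Benjamini-Hochberg adjusted p = 0.0711). The call was also lost without the first WT growing library, the second one, or the second null growing library (limma, Benjamini-Hochberg adjusted p = 0.0525, 0.115 and 0.130).

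At the GV stage Folr4 had 368 and 309 FPKM in WT and 227 and 296 FPKM in null libraries. The null libraries lay lower without overlap, and the log2 fold change of -0.38 (standard error 0.17) was not called (limma, Benjamini-Hochberg adjusted p = 0.0955). Without the second null GV library it was -0.57 and called (limma, Benjamini-Hochberg adjusted p = 0.0357), and before scaling the null mean was 1.06-fold higher.

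At MII the 4 libraries fell into separate ranges. Folr4 had 10.2 and 10.8 FPKM in the WT MII and 80.2 and 71.3 FPKM in the Zar1/2-null MII libraries. The replicates of each genotype lay close together, and the genotypes differed 7.19-fold in the mean (6.08-fold before scaling), with a log2 fold change of 2.73 (standard error 0.17, limma, Benjamini-Hochberg adjusted p = 3.07e-07). The Folr4 level fell from GV to MII 32.2-fold in WT (-4.88, limma, Benjamini-Hochberg adjusted p = 5.09e-10) and 3.45-fold in null oocytes (-1.76, limma, Benjamini-Hochberg adjusted p = 3.33e-06). Before scaling these falls were 9.49-fold and 1.65-fold. The share of the GV level found at MII was 3.11% ± 0.400 in WT and 29.0% ± 5.91 in null oocytes.

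Astl, the gene of the granule protease ovastacin, lies on chromosome 2 of mm9, 127164375 to 127183387, plus strand, in 9 exons. It fell from growing to GV in both genotypes. WT growing libraries had 332 and 483 FPKM and WT GV libraries 139.6 and 121 FPKM, so the log2 value fell by 1.61 (standard error 0.29, limma, Benjamini-Hochberg adjusted p = 0.00334). Null growing libraries had 409.7 and 429 FPKM and null GV libraries 74.4 and 154 FPKM, so the log2 value fell by 1.96 (limma, Benjamini-Hochberg adjusted p = 0.000206). The genotypes overlapped at both stages, and no effect of the knockout was called in growing (0.07, limma, Benjamini-Hochberg adjusted p = 0.876) or GV oocytes (-0.28, limma, Benjamini-Hochberg adjusted p = 0.442; 0.17 before scaling). The null GV libraries, from 3490 and 6320 fragments, had a coefficient of variation of 49.3%, and without the second of them the GV effect was -0.80 and called (limma, Benjamini-Hochberg adjusted p = 0.0216).

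At MII the Astl level was 21.0 and 18.9 FPKM in WT libraries and 107 and 104 FPKM in Zar1/2-null libraries. The WT values came from 2085 and 2376 fragments and the null values from 9131 and 12317, so counting error was 2.19% or less. The null mean was 5.29-fold higher (4.48-fold before scaling), with a log2 fold change of 2.35 (standard error 0.29, limma, Benjamini-Hochberg adjusted p = 6.75e-05). From GV to MII Astl fell 6.53-fold in WT oocytes (-2.65, limma, Benjamini-Hochberg adjusted p = 3.96e-06), or 1.93-fold before scaling. In null oocytes it did not pass the test (-0.02, limma, Benjamini-Hochberg adjusted p = 0.958), and before scaling it was higher at MII (1.04, limma, Benjamini-Hochberg adjusted p = 0.00451). The share of the GV level found at MII was 15.3% ± 1.89 in WT and 92.5% ± 45.6 in null oocytes, the second with a wide error from the unlike GV libraries: without the second null GV library it was 142%.

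Oosp1 lies on chromosome 19 of mm9, 11741950 to 11765640, minus strand, in 5 exons, and was among the most abundant transcripts in every library. It ranked 14 and 18 of the 11502 kept genes in WT growing, 16 and 23 in null growing, 6 and 6 in WT GV, 3 and 6 in null GV, 1 and 2 in WT MII and 4 and 3 in null MII libraries. Its level was 3091 and 2777 FPKM in WT and 2432 and 1711 FPKM in null growing libraries, with both null libraries below. The log2 fold change of -0.52 (standard error 0.21) was not called (limma, Benjamini-Hochberg adjusted p = 0.0778), and it was called without the first null growing library (-0.78, limma, Benjamini-Hochberg adjusted p = 0.0308).

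At the later stages the Oosp1 level stayed high in both genotypes. WT GV libraries had 3656 and 3036 FPKM and null GV libraries 3284 and 3002 FPKM. WT MII libraries had 2881 and 2214 FPKM and null MII libraries 2997 and 2446 FPKM. The genotypes overlapped at both stages, and the log2 fold changes of -0.09 and 0.10 (standard error 0.21 each) were not called (limma, Benjamini-Hochberg adjusted p = 0.759 and 0.806) and had the other sign before scaling, at 0.37 and -0.14. The change from GV to MII was -0.40 in WT (limma, Benjamini-Hochberg adjusted p = 0.0901) and -0.21 in null oocytes (limma, Benjamini-Hochberg adjusted p = 0.382). Before scaling the sign turned and both were called, at 1.35 and 0.85 (limma, Benjamini-Hochberg adjusted p = 2.32e-05 and 0.00108). The rise from growing to GV in null oocytes (0.62, limma, Benjamini-Hochberg adjusted p = 0.0251) was lost when the second null growing, the first null GV or the second null GV library was left out (limma, Benjamini-Hochberg adjusted p = 0.209, 0.125 and 0.0632).

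The calls on the 5 genes were read against the share of all kept genes called in the same direction. In growing oocytes 1 of the 5 was called lower (Folr4), where 24.4% of all kept genes were lower. In GV oocytes 1 of 5 was called lower (Cd9), against 40.6% of all. At MII 3 of 5 were called higher (Cd9, Folr4 and Astl), against 21.5% of all, and the same 3 passed a fold of 3 on group means, against 7.49% of all. The median log2 fold change of the 5 was -0.06, -0.28 and 2.35 at the 3 stages, beside -0.16, -0.38 and 0.06 over all kept genes. Libraries without overlap were common throughout: in growing oocytes null lay above WT in 1 of 5 (22.4% of all) and below in 2 of 5 (47.4%), in GV oocytes below in 2 of 5 (63.6%), and at MII above in 4 of 5 (43.5%).

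**Figure D3:**
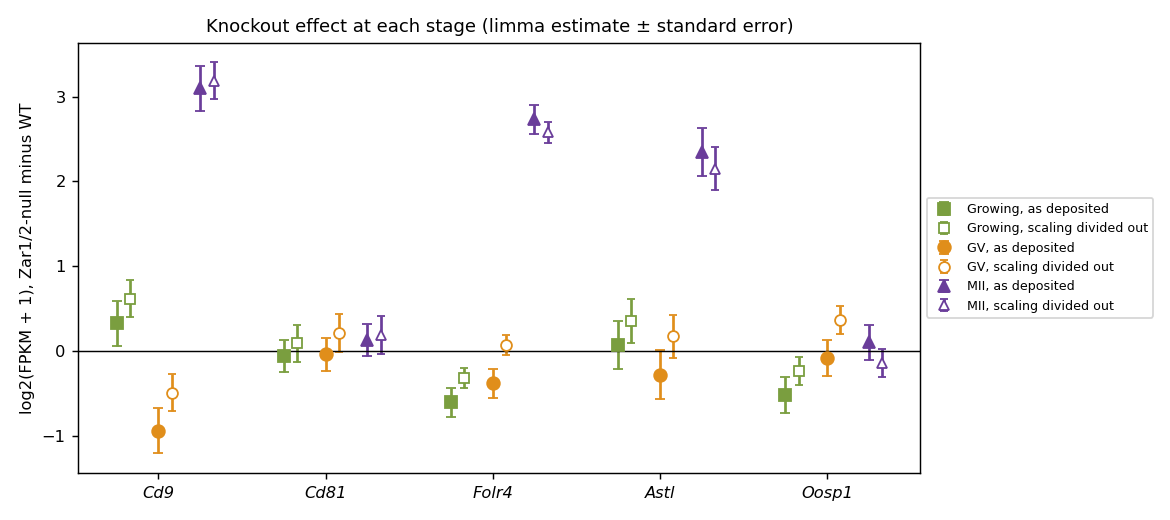
Genes are on the horizontal axis and the vertical axis is the difference in log2(FPKM + 1), Zar1/2-null minus WT, as the limma estimate with its standard error. Filled symbols use the deposited values and open symbols the values with the ERCC factor divided out (squares growing, circles GV, triangles MII). The MII estimates of Cd9, Folr4 and Astl, at 3.10, 2.73 and 2.35, stand apart from all other points, and removing the scaling moves them little.

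The knockout effect differed between stages for those 3 genes. From GV to MII the effect changed by 4.04 for Cd9 (standard error 0.38, limma, Benjamini-Hochberg adjusted p = 1.21e-05), 3.11 for Folr4 (0.24, adjusted p = 3.43e-06) and 2.63 for Astl (0.40, adjusted p = 0.000594), against a median of 0.48 and calls in 33.9% of all kept genes. From growing to MII it changed by 2.77, 3.34 and 2.28 (limma, Benjamini-Hochberg adjusted p = 0.000235, 2.08e-06 and 0.00148), with 25.3% of all genes called in that direction. From growing to GV only the effect on Cd9 was called, at -1.27 (limma, Benjamini-Hochberg adjusted p = 0.0468, 11.3% of all genes), and it was lost when any 1 of the 8 libraries was left out. For Cd81 and Oosp1 no such difference was called.

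Along the stages, 1 of 5 fell from growing to GV in WT oocytes (Astl), against 28.7% of all kept genes. In null oocytes 2 of 5 fell (Cd9 and Astl), against 55.9%, and 1 of 5 rose (Oosp1), against 4.76%. From GV to MII 4 of 5 fell in WT (all but Oosp1), against 93.4%, and 2 of 5 in null oocytes (Cd9 and Folr4), against 68.7%, so falling at MII was the rule among all genes on the deposited scale. Among the 4914 genes at or above 10 FPKM in WT GV oocytes the median share found at MII was 18.8%, and 6.17% of them kept less than Cd9, 17.0% less than Folr4, 45.4% less than Astl and 99.0% less than Oosp1. Among 4011 such genes in null oocytes the median was 36.0%, and 37.6% kept less than Cd9, 43.0% less than Folr4, 92.8% less than Astl and 89.7% less than Oosp1. Within each set these ranks hold whatever the library factors, up to the averaging of replicates, and they were given no test. The sets were chosen on deposited FPKM, so they depend on the factors and differ between the genotypes.

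**Figure D4:**
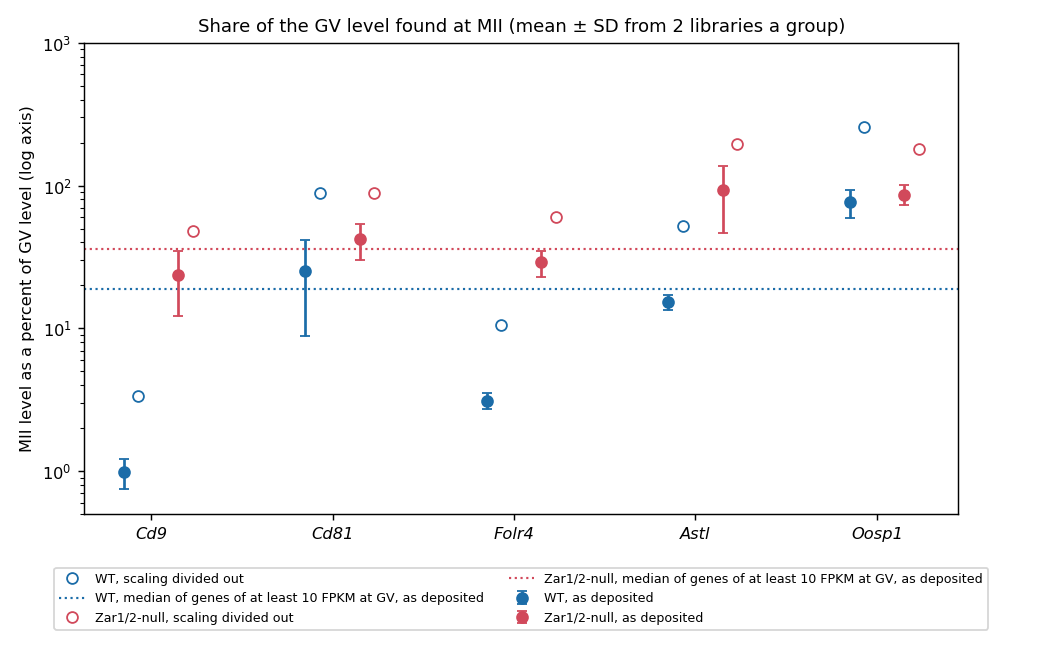
Genes are on the horizontal axis and the MII level as a percent of the GV level is on a logarithmic vertical axis. Filled points are means with SD from 2 libraries a stage (WT blue, Zar1/2-null red), open points have the ERCC factors divided out, and dotted lines are the medians of genes that reached 10 FPKM at GV, 18.8% in WT and 36.0% in null oocytes. Cd9 and Folr4 lie far below the WT median and near the null median, Astl moves from near the median to well above it, and Oosp1 lies above it in both.

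The genes whose pattern over the 12 libraries was most like each of the 5 were sought among kept genes whose mean reached 10 FPKM, by Pearson r of log2(FPKM + 1). The libraries share stages and scaling factors, so r is given as a description. Cd9 was most like Cct3 and Nudt14 (r = 0.997 each), with Cct3 at 162 FPKM in WT GV, 4.11 in WT MII and 33.4 in null MII oocytes. Folr4 was most like Syce2 and 1700040I03Rik (0.997 each), and Astl most like Ubac2 (0.994) and Tubg1 (0.993). For Ubac2 the likeness dropped to 0.46 before scaling, while that of Tubg1 stayed at 0.91. Oosp1 was most like Omt2a (0.990, and 0.999 before scaling) and Omt2b (0.939 and 0.996), with Omt2a at 612 FPKM in WT GV and 473 in WT MII oocytes. The genes nearest to Cd81, Gm16039 (0.916) and Apoo-ps (0.908), fell to 0.40 and 0.38 before scaling. Between the 5 themselves, Cd9 and Folr4 were the closest pair (0.973, and 0.926 before scaling), and Oosp1 was the least like the rest as deposited. Before scaling the r of Oosp1 was -0.82 with Cd9, -0.62 with Folr4, -0.59 with Astl and 0.07 with Cd81. That of Cd9 with Cd81 went from 0.84 to 0.14.

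Partners of these proteins at the egg membrane were counted as a list. It held the CD9 partners Igsf8 and Ptgfrn, 5 integrin genes, and Piga, Pigl and Pgap1, which make or trim the GPI anchor that JUNO carries. Of 8 kept, 0 were higher and 3 lower at MII (Itga6, Piga and Pgap1), where 10.3% of all kept genes were lower. Piga was lower in null oocytes at all 3 stages, with 19.7 and 9.03 FPKM in WT and null growing, 15.1 and 6.96 in GV and 7.98 and 3.29 FPKM in MII oocytes (log2 fold changes -1.06, -1.01 and -1.06, limma, Benjamini-Hochberg adjusted p = 0.000666, 0.000776 and 0.000453). Itga6, an integrin alpha chain, was 7.92 FPKM in WT and 3.40 FPKM in null MII oocytes (-1.01, limma, Benjamini-Hochberg adjusted p = 0.00141). Itgb1, its beta partner, was higher in null growing oocytes (0.58, limma, Benjamini-Hochberg adjusted p = 0.00636) and had 2.93 and 2.91 FPKM at MII. Itga9 was lower in null growing and GV oocytes (-0.56 and -0.59, limma, Benjamini-Hochberg adjusted p = 0.0236 and 0.0153), and neither call was made before scaling. In growing oocytes 2 of the 8 were higher, where 10.6% of all genes were, and 3 were lower, and in GV oocytes 4 were lower and 0 higher, where 2.83% of all genes were higher. The shares of all genes that were lower, 24.4% in growing and 40.6% in GV oocytes, stand beside those 3 and 4 of 8. Before scaling Piga alone was lower at each of these stages, where fewer of all kept genes were lower too.

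Tetraspanins other than Cd9 and Cd81 formed a second list. Of 13 kept of 25 listed, 6 were higher and 1 lower at MII (median log2 fold change 0.50), where 21.5% of all kept genes were higher and 10.3% lower. Before scaling the median was 0.72, against -0.01 over all kept genes. Tspan3 had 3.20 FPKM in WT and 6.41 FPKM in null MII oocytes (0.82, limma, Benjamini-Hochberg adjusted p = 0.00337). Tspan33, named after its values were seen, had 0.584 and 6.49 FPKM there (2.24, limma, Benjamini-Hochberg adjusted p = 3.02e-06), and Cd151, chosen likewise, 0.424 and 2.12 FPKM (1.12, limma, Benjamini-Hochberg adjusted p = 0.000354). Tspan13 was lower in null oocytes at all 3 stages (-0.999, -1.25 and -1.13, limma, Benjamini-Hochberg adjusted p = 0.000498, 0.000121 and 0.000123). Tspan14 and Tspan31 were not called at MII (-0.06 and -0.21). From GV to MII all 13 fell in WT oocytes on the deposited scale, as 93.4% of all genes did. Before scaling the median of this change was -1.25, against -0.43 over all kept genes.

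Of the relatives of the other 3 genes, 4 of 9 were kept. At MII 1 of these was called higher and 2 lower, where 21.5% of all kept genes were higher and 10.3% lower. Plac1l, the older symbol of Oosp2, a relative of Oosp1, was expressed at 1118 FPKM in WT GV oocytes. It fell to 100.2 FPKM at MII in WT and to 279 FPKM in null oocytes, and was higher in null MII oocytes (1.496, limma, Benjamini-Hochberg adjusted p = 0.000655). Plac1 and the protease gene Tll1, an astacin-family relative of Astl, were lower in null MII oocytes (-1.02 and -0.50, limma, Benjamini-Hochberg adjusted p = 0.0317 and 0.0161), both at under 3 FPKM. Mep1b, another astacin protease, was lower in null growing oocytes (-0.99, limma, Benjamini-Hochberg adjusted p = 0.000891). The zona pellucida genes Zp1, Zp2 and Zp3, of which Zp2 encodes the protein cut by ovastacin, were all higher in null MII oocytes, as 21.5% of all kept genes were. Their log2 fold changes were 4.24, 4.14 and 5.40 (limma, Benjamini-Hochberg adjusted p = 1.13e-07, 1.68e-08 and 3.93e-09). The Zp2 level at MII was 36.8 FPKM in WT against 662 FPKM in null oocytes.

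Genes of cortical granule traffic and release were mixed at MII. Of 16 kept of 20, 6 were higher (Rab3a, Nsf, Napa, Vamp8, Calr and Uchl1) and 3 lower (Rab27a, Vamp3 and Slc39a10), with a median of 0.04, against 21.5% and 10.3% of all kept genes. Before scaling the median was -0.14, against -0.01 over all kept genes. Calr, the calcium-binding chaperone calreticulin, had 10.2 FPKM in WT and 45.1 FPKM in null MII oocytes (2.07, limma, Benjamini-Hochberg adjusted p = 5.19e-05). Uchl1, a deubiquitinase, had 145 and 714 FPKM (2.32, limma, Benjamini-Hochberg adjusted p = 3.66e-06). Vamp8, a vesicle SNARE, moved in different directions by stage: it had 146 FPKM in WT and 19.6 FPKM in null growing oocytes (-2.84, limma, Benjamini-Hochberg adjusted p = 5.61e-06), was higher in null GV oocytes (0.83, limma, Benjamini-Hochberg adjusted p = 0.00789) and had 1.32 and 10.5 FPKM at MII (2.28, limma, Benjamini-Hochberg adjusted p = 5.58e-06). Hsp90b1 was not called at MII (-0.45, limma, Benjamini-Hochberg adjusted p = 0.0524) and was called lower there before scaling (-0.70, limma, Benjamini-Hochberg adjusted p = 0.00174). In WT oocytes all 16 fell from GV to MII on the deposited scale, against 93.4% of all genes. Before scaling the median of this change was -1.08, against -0.43 over all kept genes.

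Of the 10 oocyte markers, 8 were higher and 1 (Kit) lower in null MII oocytes, against 21.5% and 10.3% of all kept genes. Before scaling the median was 0.73, against -0.01 over all kept genes. Ooep had 118 FPKM in WT and 1142 FPKM in null MII oocytes (3.25, limma, Benjamini-Hochberg adjusted p = 2.23e-07). The median over the 10 was 0.94 as deposited, and Dppa3 was not called. Before scaling the MII log2 fold changes were 3.02 for Ooep, 1.54 for Npm2, 0.73 for Gdf9 and -0.08 for Dppa3. Of the 5 kept granulosa markers, Kitl was called lower at MII before scaling, where more of all kept genes were lower than on the deposited scale. Of the 2 immune and blood markers kept, Pecam1 was higher at MII, at 2.79 FPKM in WT against 4.70 FPKM in null oocytes (0.60, limma, Benjamini-Hochberg adjusted p = 0.0134). The part of these markers in the results on Cd9, Folr4 and Astl was not tested.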

How the data were processed

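RNA of WT and Zar1/2-null growing, GV and MII oocytes was sequenced by Smart-seq2, and libraries were grouped by the genotype, stage and replicate in their labels. The authors mapped the reads to mm9 with TopHat2 2.1.1, computed FPKM with Cufflinks 2.2.1 and deposited FPKM values multiplied by an ERCC factor, as 1 table of 23230 genes and 12 libraries. The deposited FPKM values hold no counts. The factor of each library was recovered as the value that, divided out, returns entries of 6 significant digits, and relative depth and whole fragments came from ratios between low values. The fragment recovery was chosen after seeing the data, and no count-based test was run on it since it covered 3 of the 5 genes.

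The 11502 genes with at least 1 FPKM in 1 library were fitted with limma 3.58.1 in R 4.3.3 on log2(FPKM + 1). The model had a mean for each group, all 12 libraries entered it, the eBayes step followed an intensity trend, and Benjamini-Hochberg adjustment ran over all kept genes. The code was tested on simulated data. Folds are ratios of group means, and the 3-fold rule set group means under 1 FPKM to 1 FPKM. Shares kept from GV to MII and likeness of pattern are descriptions with no test. Gene lists are given by counts and medians only, with no set test. Their medians before scaling, and the calls named there, were added after seeing the data.

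Besides the 5 genes and the targeted genes, the text names the 4 members of each list with the highest mean FPKM (of those, not every one is given values), any gene counted as called where the count is small, and the 2 genes most like each of the 5. The members and lists were chosen with earlier results of these data known. Alternatives were no ERCC scaling, median scaling, a factor averaged over the libraries of a group, a pseudocount of 0.1 FPKM, a filter at a mean of 5 FPKM, no filter, only the libraries compared, eBayes without trend, a replicate block and leaving out each library. For the 3-fold rule, a floor of 0.1 FPKM and geometric means were also run. Sequences and positions came from GENCODE transcripts of mm9, in which all 5 genes were matched by symbol. No protein sequence was used here.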

Additional observations from a re-analysis of the deposited data

Results flagged for a closer look

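The knockout effect (Zar1/2-null minus WT, in log2(FPKM + 1)) differed between stages in 7 cases, each by a test of the difference itself (limma interaction over all 12 libraries, Benjamini-Hochberg adjusted over all kept genes).

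From GV to MII the effect changed by 4.04 for Cd9, 3.11 for Folr4 and 2.63 for Astl, with standard errors of 0.38, 0.24 and 0.40. At MII both null libraries lay above both WT libraries for each of the 3 genes, as they did in 43.5% of all kept genes. From growing to MII it changed by 2.77 for Cd9, 3.34 for Folr4 and 2.28 for Astl. Over the alternatives the lowest of these 6 differences was 1.72, for Astl between growing and MII, and their adjusted p-values from limma reached at most 0.0229 with Benjamini-Hochberg adjustment. These differences share the MII libraries, so they are not separate evidence.

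From growing to GV the effect on Cd9 changed by -1.27 (standard error 0.38, limma, Benjamini-Hochberg adjusted p = 0.0468). Over the alternatives it lay between -1.46 and -1.01, and its adjusted p between 0.0199 and 0.158 (limma, Benjamini-Hochberg).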

How the results depend on the processing

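The higher level of Cd9, Folr4 and Astl in null MII oocytes kept its direction and its call under all 13 alternatives run for each, with log2 fold changes of 2.62 to 3.58, 2.46 to 2.83 and 2.03 to 2.42 and adjusted p-values of at most 0.00553, 0.000977 and 0.00417 (limma, Benjamini-Hochberg). Of the differences between stages and genotypes of the 5 genes, leaving out a library left 239 unchanged in call, made 3 pass and 18 fail, and the other settings left 407 unchanged. For the values that changed, the cause was not tested unless given.

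With the ERCC factors divided out, and with median scaling, log2 values reversed for Folr4 from growing to GV in null (0.55 and 0.64), for Oosp1 from GV to MII in WT (1.35 and 2.05) and null (0.85 and 1.36), and for Astl from GV to MII in null oocytes (1.04 and 1.55). Median scaling also reversed Cd81 from GV to MII in WT (0.29). Knockout effects not called as deposited also changed sign in both settings: Folr4 in GV (0.07 and 0.13), Astl in GV (0.17 and 0.23), Oosp1 in GV (0.37 and 0.43) and MII (-0.14 and -0.27), and Cd81 in growing (0.09 and 0.06) and GV (0.21 and 0.23). The call was lost, in the same 2 settings, for Folr4 in growing (-0.32 and -0.36), Cd9 in GV (-0.49 and -0.43) and the Cd9 difference between GV and growing (-1.11 and -1.01). It was lost for Cd81 from GV to MII in WT without scaling (-0.070), and with median scaling for Astl in WT (-0.25) and Folr4 in null oocytes (-0.20). Without scaling the share of the GV level found at MII was 3.37% for Cd9, 88.2% for Cd81, 10.5% for Folr4, 51.8% for Astl and 258% for Oosp1 in WT, and 48.4%, 88.2%, 60.7%, 196% and 179% in null oocytes.

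With no filter, more genes were tested at the same values, and the call was lost for Cd9 in GV (-0.94), Oosp1 from growing to GV in null (0.62), Cd81 from GV to MII in WT (-0.58) and the Cd9 difference between GV and growing (-1.27). That last difference was also lost with a pseudocount of 0.1 FPKM (-1.28) and with genes of at least 5 FPKM (-1.27), and the Oosp1 rise in null oocytes with only the libraries compared (0.62). The averaged factor added Oosp1 in growing (-0.52), Folr4 in GV (-0.38) and Oosp1 from GV to MII in WT (-0.40). A pseudocount of 0.1 FPKM and the fit on the libraries compared added Cd81 from GV to MII in null (-1.02 and -0.42).

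Leaving out 1 library moved Folr4 in growing between -0.71 and -0.51, Oosp1 in growing between -0.78 and -0.27, Cd9 in GV between -1.13 and -0.75, Folr4 in GV between -0.57 and -0.19 and Astl in GV between -0.80 and 0.24. It moved Oosp1 from growing to GV in null between 0.37 and 0.88, Cd81 from GV to MII in WT between -0.88 and -0.29 and the Cd9 difference between GV and growing from -1.46 to -1.08. The share kept ran from 17.6% to 44.3% for Cd81 in WT and from 68.6% to 142% for Astl in null oocytes.

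Samples with the same replicate number did not deviate together in every pair of groups: the correlations ran from -0.11 to 0.19 over 15 pairs, 13 above 0 and 5 above 0.1. The labels give no shared animal or day, so the numbers were not taken as pairs in the main fit. Libraries of one replicate number do share the WT growing library used as reference for their ERCC factors. The Oosp1 level was higher in replicate 1 than in replicate 2 in all 6 groups, as deposited and before scaling. The replicate block added Oosp1 in growing (-0.52), from GV to MII in WT (-0.40) and in the difference between MII and growing (0.62), with adjusted p = 0.00473, 0.00520 and 0.0123 (limma, Benjamini-Hochberg).

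The number of genes called varied by more than 1.5 times: 1224 higher and 2801 lower in growing, 325 and 4666 in GV and 2472 and 1183 in MII oocytes as deposited, but 1412 lower in growing, 827 and 1554 in GV and 2694 lower in MII without scaling, and 1415, 907 and 1318, and 3396 with median scaling. With a pseudocount of 0.1 FPKM 814 were higher in growing. With genes of at least 5 FPKM 313 were higher and 1369 lower in growing and 118 and 2494 in GV, and with only the libraries compared 214 and 2949 in GV. Over single libraries left out, the lower calls ran from 1719 to 2549, 2722 to 4388 and 681 to 877, and the higher calls from 799 to 1120, 215 to 314 and 1792 to 2039. Cd81 is limited by its 11 to 27 fragments a library.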
